A study of Homo sapiens with 4 samples.

Results

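H3K27ac, a histone mark found at active promoters and enhancers, was examined at 10 genes that encode the neuronal cytoskeleton in neuroblastoma (NB) cells with and without depletion of the long non-coding RNA *SNHG1*. The genes were *NEFL*, *NEFM*, *NEFH*, *INA* and *PRPH*, *STMN2*, *MAPT*, *MAP2* and *TUBB3*, and *GAP43*, 10 of 20020 protein-coding genes of the annotation. They were chosen by name for their function, and every H3K27ac peak that overlapped the gene body or the 10 kb on either side of it was taken as belonging to the gene. These windows held 53 of the 63699 peaks in the sgCtrl list and 36 of the 50119 peaks in the sgSNHG1 list.

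SK-N-BE(2)C is an NB cell line with amplified *MYCN*. Control cells (sgCtrl, 2 samples, labelled wildtype) had received Cas9 with a non-targeting gRNA, and *SNHG1*-depletion cells (sgSNHG1, 2 samples, labelled as *SNHG1* knockout) had received Cas9 with gRNAs against *SNHG1*. Both were selected with puromycin and grown from single sorted cells, so each group stands for clonal cells, and the clone used for ChIP-seq is not named in the sources used here. The authors pooled both samples of a group before they called peaks, which left 1 peak list per group and no value per sample. The spread between samples is therefore unknown, no difference between the groups was tested, and all intervals below cover counting error only. The depth per sample is unknown as well. In a bulk assay of this kind, a change in the share of cells that carry the mark and a change in the amount of mark per cell cannot be told apart.

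Neurofilaments are the intermediate filaments of nerve cells and set the calibre of large axons. They are assembled from a light (*NEFL*), a medium (*NEFM*) and a heavy (*NEFH*) subunit together with α-internexin (*INA*) or, in peripheral and sympathetic neurons, peripherin (*PRPH*). Microtubules are the second scaffold of the neurite, built with the neuronal β-tubulin *TUBB3*, bundled by the associated proteins tau (*MAPT*) and *MAP2*, and made more dynamic by the stathmin *STMN2*. *GAP43* is a membrane protein of growth cones, the moving tips of growing neurites. NB arises from sympathetic precursors, and these genes are commonly used as markers of neuronal differentiation in NB cells.

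Some of the DNA that lay under or beside these peaks is given first. RefSeq promoter sequences (GRCh38.p14) matched 5 of the 10 genes, namely *INA*, *PRPH*, *GAP43*, *MAP2* and *TUBB3*. *NEFL*, *NEFM*, *NEFH*, *STMN2* and *MAPT* were not matched. The 250 bases before the starts of *INA* (chr10:103276888-103277137) and *PRPH* (chr12:49294897-49295146), both on the plus strand, are shown because a strong peak began right after each start in both lists. Capitals mark every match, on either strand, to CACGTG (the E-box of MYC), to CAGCTG (an E-box of many neuronal factors), to CATCTG (an E-box of the same kind), to TATAAA (the TATA box), to CCAAT (the CCAAT box) or to GGGCGG (the GC box). None of these contains another.
INA: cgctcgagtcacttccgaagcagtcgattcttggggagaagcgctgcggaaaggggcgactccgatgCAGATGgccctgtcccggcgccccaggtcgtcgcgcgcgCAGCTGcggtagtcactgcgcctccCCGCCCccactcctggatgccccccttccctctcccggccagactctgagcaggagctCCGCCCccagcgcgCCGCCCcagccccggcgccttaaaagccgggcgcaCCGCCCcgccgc
PRPH: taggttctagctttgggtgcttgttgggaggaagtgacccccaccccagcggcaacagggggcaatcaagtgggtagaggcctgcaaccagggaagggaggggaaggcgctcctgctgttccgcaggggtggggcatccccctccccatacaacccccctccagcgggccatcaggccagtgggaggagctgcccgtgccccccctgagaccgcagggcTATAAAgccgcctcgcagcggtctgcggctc
The *INA* promoter held both of the latter E-boxes and repeated GC boxes, and the *PRPH* promoter held a TATA box. Of 35116 RefSeq promoters of 300 bases (250 before the start and 50 after it), 17.9% held CAGCTG, and 14.7% held the other E-box of that kind. The GC box stood in 45.0% and the TATA box in 11.5%. The E-box that MYC and MYCN bind with MAX stood in 7.26% of all promoters and in 0 of these 5.

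*GAP43* and *MAP2* are shown because their strongest peaks lay far from the annotated start of the gene. The first sequence below is the 250 bases before the *GAP43* start (chr3:115623260-115623509, plus strand), where neither list had a peak. The second is the 300 bases around the sgCtrl summit of the strongest *GAP43* peak, 35.4 kb into intron 1 (chr3:115658715-115659014, plus strand), part of which is also an exon of the lncRNA ENSG00000241596. Last come 219 bases before an internal start of *MAP2* (chr2:209661246-209661464, plus strand), which RefSeq places 237.4 kb downstream of the start that GENCODE marks as canonical. Capitals have the same meaning as above.
GAP43 start: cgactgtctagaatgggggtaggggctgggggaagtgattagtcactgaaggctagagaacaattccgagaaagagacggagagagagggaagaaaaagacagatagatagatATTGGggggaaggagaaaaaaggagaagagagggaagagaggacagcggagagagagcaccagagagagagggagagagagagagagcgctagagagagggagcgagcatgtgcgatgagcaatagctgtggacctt
GAP43 intron 1 summit: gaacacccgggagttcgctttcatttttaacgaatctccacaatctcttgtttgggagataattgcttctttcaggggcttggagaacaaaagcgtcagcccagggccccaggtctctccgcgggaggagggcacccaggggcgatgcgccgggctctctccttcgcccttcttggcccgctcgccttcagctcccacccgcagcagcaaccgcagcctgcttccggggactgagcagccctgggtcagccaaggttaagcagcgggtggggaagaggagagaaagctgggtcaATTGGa
MAP2 internal start: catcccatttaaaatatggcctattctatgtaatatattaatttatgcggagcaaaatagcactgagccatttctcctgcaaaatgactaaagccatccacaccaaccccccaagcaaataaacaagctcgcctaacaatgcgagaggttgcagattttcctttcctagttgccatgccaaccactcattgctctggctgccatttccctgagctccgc
The *GAP43* start and its intronic summit each held 1 of the searched motifs, CCAAT, which stood in 34.6% of all promoters. The stretch before the internal *MAP2* start held none of them. The bases differed in GC content, from 44.3% before the internal *MAP2* start and 51.6% at the *GAP43* start to 60.3% at the *GAP43* intronic summit, 66.8% at *PRPH* and 72.8% at *INA*. The REST element, through which the repressor REST silences neuronal genes in other tissues, was searched as CAGCACC, followed after a spacing of 2 bases by the letters GGACAG. The pair stood in 18 of 35116 promoters (0.0513%) and in 0 of the 5. The shorter piece alone stood in the promoters of *INA*, *GAP43* and *TUBB3*, against 20.5% of all promoters, and the longer piece in 0 of 5, against 7.75%.

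The height of a peak is given in 3 ways below. The summit fragments are the number of DNA fragments over the summit of the peak, recovered from the deposited values. The summit height divides them by the lowest local background that occurred in the same list, 4.89 fragments in sgCtrl and 4.66 in sgSNHG1. This does not fully align the lists, since the median log2 ratio of these heights over the shared regions was -0.13. The relative log2 ratio is the log2 ratio of the sgSNHG1 height over the sgCtrl height minus its median over the 38580 regions with a peak in both lists (shared regions), so that 0 is the typical shared region. A region was called higher or lower when this ratio was past 1.5-fold. Fold enrichment, the value the authors' peak caller gave, instead divides the summit by the background around each peak. Over all shared regions 8.79% were called higher and 5.58% lower. Of the 14273 shared regions that reached to 1 kb or less from the start of a protein-coding gene (start-site regions), 17.0% were called higher and 3.00% lower, and their median relative log2 ratio was 0.24.

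Marker genes of the cell type were looked at first. Start-site peaks stood at 6 of 7 adrenergic NB markers in sgCtrl and at 7 of 7 in sgSNHG1, and at 0 of 3 blood, 0 of 2 epithelial and 0 of 2 endothelial markers in both lists. Of the 4 Schwann and glial markers, *SOX10* and *GFAP* had a start-site peak in both lists. Of the 6 adrenergic markers with a start-site region in both lists, 2 were called higher (*CHGB* at 0.81 and *ISL1* at 0.67) and 1 lower (*HAND2* at -0.95), with a median relative log2 ratio of 0.29. The glial markers *SOX10* and *GFAP* had -0.61 and -0.31. What part these marker changes had in the results below was not tested.

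Only shared regions within 1 kb of the start were taken as start-site regions, and of several the one with the most fragments. This left out an sgSNHG1-only *MAPT* region with its summit at 1.0 kb. Of the 10 genes, 9 had a start-site region of this kind. Relative to the typical shared region, 4 were called higher in sgSNHG1 (*NEFL*, *STMN2*, *NEFM* and *NEFH*), 1 was called lower (*MAPT*), and 4 lay between (*TUBB3*, *MAP2*, *INA* and *PRPH*), beside 17.0% higher and 3.00% lower over all start-site regions. The higher group held the 3 neurofilament subunits proper but not the other filament proteins *INA* and *PRPH*. The median of the 9 was 0.45. Some of these calls depended on what a region was set against. Relative to the median start-site region, *NEFL* (0.79) and *STMN2* (0.68) remained past 1.5-fold, *NEFM* (0.56) and *NEFH* (0.48) did not, and *MAPT* was at -0.82, beside 5.87% higher and 8.68% lower over all start-site regions. Relative to the shared regions within 1 Mb outside each window, the 4 higher calls held and *MAPT*, at -0.45, was inside the limit. Those surroundings mix regions at promoters (3 kb or less from a protein-coding start) with regions elsewhere. The promoter regions among them had medians of 0.78 around *NEFL* (5 regions), 0.77 around *NEFM* (4), 0.28 around *NEFH* (28) and 0.21 around *STMN2* (10). Set against these medians, only *STMN2* would remain past 1.5-fold higher. The few promoter regions around *NEFL* and *NEFM* include the start regions of the other gene of the pair. For these genes the comparison therefore sets members against members and decides nothing.

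**Figure D1:**
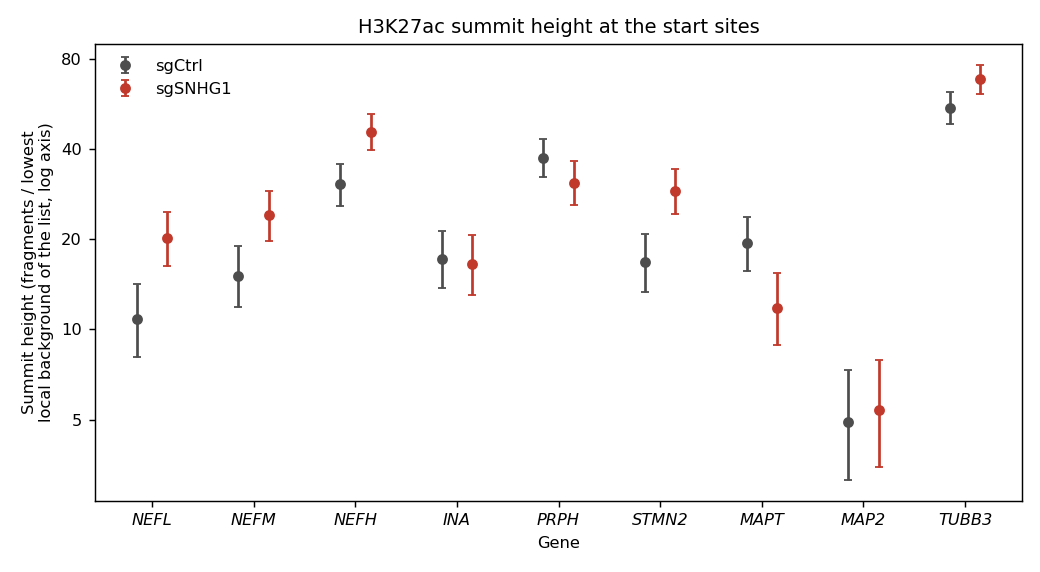
Summit height (fragments over the summit divided by the lowest local background of the list, log axis) of the start-site region of each gene that has one, for the sgCtrl list (grey) and the sgSNHG1 list (red). Bars are 95% Poisson counting intervals of 1 pooled list per group. The heights are not centred on the median shared region, unlike the relative log2 ratios. The sgSNHG1 points lie above the sgCtrl intervals at *NEFL*, *NEFM*, *NEFH*, *STMN2* and *TUBB3* and below the sgCtrl interval at *PRPH* and *MAPT*.

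*NEFL* encodes the light subunit, without which neurofilaments do not assemble (ENSG00000277586.4, chr8:24950955-24956721, minus strand, 4 exons in GRCh38). Its start-site region covered coding exon 1. The summit had 53 fragments in sgCtrl and 94 in sgSNHG1, or a height of 10.8 and 20.2. The relative log2 ratio was 1.03 (95% counting interval 0.53 to 1.54), a 2.04-fold difference and the 97.8th percentile among all shared start-site regions. The fold enrichment of the same summit was 5.96 and 8.14. Downstream of the gene, 14.2 kb from the start, a shared region had 38 and 35 fragments and a relative log2 ratio of 0.08 (-0.62 to 0.78). Between them, each list had 1 peak of its own, at 12.9 kb in sgCtrl with 40 fragments and at 13.4 kb in sgSNHG1 with 28.

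*NEFM* encodes the medium subunit and lies next to *NEFL* on chromosome 8 (ENSG00000104722.14, chr8:24913758-24919098, plus strand, 3 exons). A pair of shared regions flanked its start, one upstream with the summit at -0.4 kb and one over coding exon 1 at 0.6 kb. The upstream summit had 71 fragments in sgCtrl and 106 in sgSNHG1, a relative log2 ratio of 0.78 (0.33 to 1.23). The summit over exon 1 had 74 and 112, a relative log2 ratio of 0.80 (0.36 to 1.24). Both were higher in sgSNHG1 by about the same amount. One more shared region, 14.0 kb from the start and beyond the end of the gene, had 40 and 29 fragments and a relative log2 ratio of -0.26 (-1.01 to 0.46).

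Fold enrichment gave another picture of *NEFM*. It was 5.50 in sgCtrl and 5.27 in sgSNHG1 at the exon 1 summit. The local background there was 12.6 fragments in sgCtrl and 20.5 in sgSNHG1, and the relative log2 ratio of the fold enrichment was -0.03. MACS2 estimates the local background from reads around a peak, and no input library is named. If the ChIP reads themselves were used, the peak and its neighbours contribute to that background. Whether this was so was not tested.

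*NEFH* encodes the heavy subunit, which carries the long phosphorylated tail of the filament (ENSG00000100285.10, chr22:29480218-29491390, plus strand, 4 exons). Its start-site region lay over coding exon 1 and had 149 fragments in sgCtrl and 213 in sgSNHG1. The relative log2 ratio was 0.71 (0.41 to 1.03), the 90.4th percentile among start-site regions. Fold enrichment was 5.56 and 7.54. The remaining region of its window, at -9.8 kb, had 47 and 35 fragments and a relative log2 ratio of -0.23 (-0.90 to 0.44).

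*INA* encodes α-internexin (ENSG00000148798.11, chr10:103277138-103290346, plus strand, 3 exons). Its window held 1 region, which began 43 bp after the start and had its summit over coding exon 1. The summit had 84 fragments in sgCtrl and 77 in sgSNHG1, a relative log2 ratio of 0.07 (-0.39 to 0.54). The start of *NT5C2*, a nucleotidase gene, lies in the same window, so the peak cannot be assigned to *INA* alone.

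*PRPH* encodes peripherin (ENSG00000135406.15, chr12:49295147-49298686, plus strand, 9 exons). Its start-site region over exon 1 had 183 fragments in sgCtrl and 144 in sgSNHG1, a relative log2 ratio of -0.15 (-0.47 to 0.18). A region over intron 4 had 75 and 62, a relative log2 ratio of -0.08 (-0.58 to 0.43). The sgSNHG1 list had a further peak at -1.3 kb with 99 fragments and a fold enrichment of 3.15 that the sgCtrl list did not have. It had the most fragments of the 5 peaks found only in sgSNHG1.

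Among the microtubule genes, *STMN2* had the largest difference at its start. It encodes stathmin-2, a tubulin-binding protein of growing axons (ENSG00000104435.14, chr8:79611117-79666158, plus strand, 5 exons). The region at its start had 82 fragments in sgCtrl and 135 in sgSNHG1, a relative log2 ratio of 0.92 (0.51 to 1.33) and the 96.4th percentile among start-site regions. In sgCtrl this region consisted of separate peaks of 343 and 484 bp, and in sgSNHG1 of 1 peak of 1065 bp. The next region, with its summit 1.9 kb into the gene, had 119 and 155 fragments. Its relative log2 ratio of 0.58 (0.23 to 0.94) lay just inside the 1.5-fold limit. Fold enrichment at the start was 4.28 in sgCtrl and 4.93 in sgSNHG1, over a local background of 18.4 and 26.6 fragments, and its relative log2 ratio was 0.24. The sgSNHG1 list had peaks in these start regions only, whereas sgCtrl had 3 more peaks in introns, at 9.9, 14.6 and 30.8 kb. They had 33, 33 and 31 fragments and fold enrichments of 4.79, 4.30 and 4.70, so they were low in fragments but above the sgCtrl median fold enrichment of 3.75.

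*TUBB3* encodes the neuronal class III β-tubulin (ENSG00000258947.8, chr16:89921392-89938761, plus strand, 4 exons) and had the highest summits of all 10 genes. Its main start-site region had 269 fragments in sgCtrl and 319 in sgSNHG1, a relative log2 ratio of 0.45 (0.21 to 0.68), which is above the typical shared region and inside the 1.5-fold limit. Neighbouring shared regions at -0.6 and 2.6 kb had relative log2 ratios of 0.42 (0.05 to 0.78) and 0.39 (-0.01 to 0.80). A region at -3.6 kb moved the other way, with 146 and 100 fragments and a relative log2 ratio of -0.35 (-0.73 to 0.03). That region and another at -11.0 kb, with 89 and 88 fragments, lie close to the starts of *MC1R* and ENSG00000198211, and the start of *DEF8* is in the window too. Peaks found in 1 list stood at -2.2 kb (104 fragments) and 12.0 kb (64) in sgCtrl and at 10.9 kb (51) in sgSNHG1.

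*MAP2* encodes the microtubule-associated protein of dendrites (ENSG00000078018.22, chr2:209424047-209734147, plus strand, 16 exons). At its canonical start the peak was the lowest of the 9, with 24 fragments in sgCtrl and 25 in sgSNHG1 and a relative log2 ratio of 0.26 (-0.61 to 1.13). Its strongest peak stood 236.9 kb into the gene in intron 5, with 64 fragments in sgCtrl and 88 in sgSNHG1. The relative log2 ratio was 0.66 (0.18 to 1.15), called higher. The sgCtrl summit lay 519 bp upstream of the internal RefSeq start whose sequence is given above. Fold enrichment at this summit was 6.18 in sgCtrl and 6.14 in sgSNHG1. A peak at 240.5 kb with 31 fragments was in sgCtrl only.

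*GAP43* (ENSG00000172020.13, chr3:115623510-115721490, plus strand, 3 exons) was the only one of the 10 genes with no peak within 1 kb of its start in either list. Of 14778 protein-coding genes with a peak in the window in both lists, 16.5% likewise had none at the start. The peak in intron 1 was the strongest of all member peaks by fold enrichment, 9.01 in sgCtrl and 9.63 in sgSNHG1. It had 166 and 197 fragments and a relative log2 ratio of 0.45 (0.14 to 0.75). A region at 52.9 kb over coding exon 2 had 44 and 46 fragments, a relative log2 ratio of 0.26 (-0.37 to 0.89). Peaks at 66.6 and 85.2 kb in intron 2, with 28 and 31 fragments, were in sgCtrl only.

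**Figure D2:**
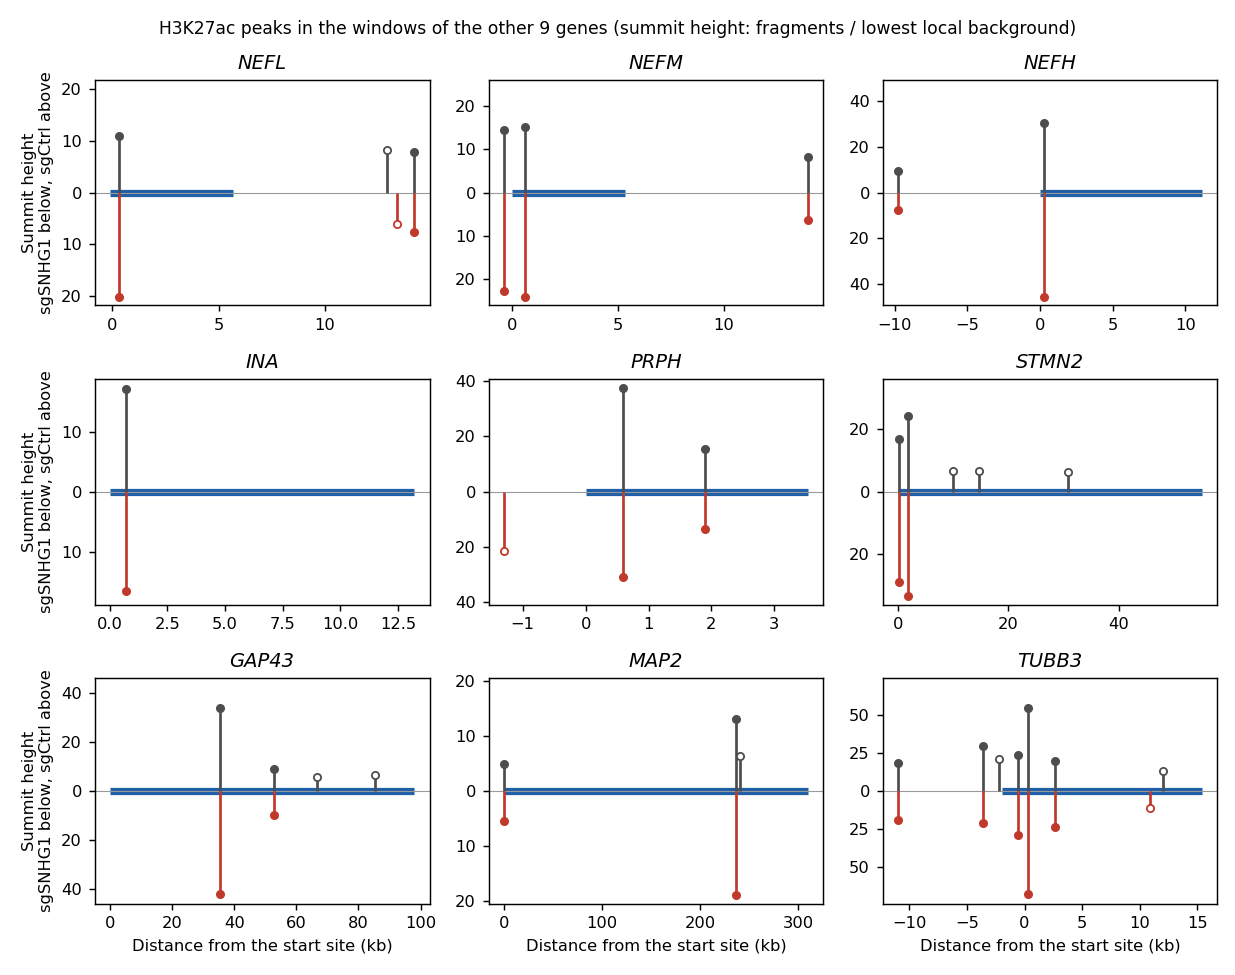
Peaks in the windows of the 9 genes other than *MAPT*, by distance of the summit from the start site (kb) in the direction of transcription. Lines give the summit height (fragments divided by the lowest local background of the list), sgCtrl upward in grey and sgSNHG1 downward in red. Filled points are shared regions, open points are peaks found in 1 list, and the blue bar is the gene body. The panels have separate scales. The tallest lines stand within 1 kb of the start at *NEFL*, *NEFM*, *NEFH*, *INA*, *PRPH* and *TUBB3*. At *STMN2* the tallest stands 1.9 kb into the gene, and at *GAP43* and *MAP2* far inside the gene. Most open points belong to sgCtrl and are short.

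*MAPT* was the one gene with regions called lower. It encodes tau, the microtubule-associated protein of axons (ENSG00000186868.18, chr17:45894527-46028334, plus strand, 13 exons), and had by far the most peaks, 22 in sgCtrl and 12 in sgSNHG1. The sgCtrl peaks covered 14277 bp of its window and the sgSNHG1 peaks 5648 bp, 0.396 times as much, with no value over all genes given beside it. Its start-site region had 95 fragments in sgCtrl and 55 in sgSNHG1, and its relative log2 ratio of -0.59 (-1.10 to -0.10) was just past the 1.5-fold limit. This was the 2.95th percentile among all start-site regions.

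The lower values at *MAPT* ran through most of the gene. Of 10 shared regions in the window, 6 were called lower and 0 higher, beside 5.58% lower and 8.79% higher over all shared regions, and the counting intervals of 6 lay below 0. These were not all the same regions. The region at 12.7 kb was called lower, at -0.59 (-1.25 to 0.05), but its interval held 0. The region at 101.8 kb, at -0.54 (-1.07 to -0.03), was not called. Like the start, the regions at 1.8 kb (-0.60) and 12.7 kb were just past the limit. The lowest, in intron 1 at 49.9 kb, had 95 fragments in sgCtrl and 39 in sgSNHG1, a relative log2 ratio of -1.09 (-1.66 to -0.53). The region over coding exon 5 at 88.8 kb had 95 and 51, a relative log2 ratio of -0.70 (-1.22 to -0.19). The strongest region of the gene by fragments, at 118.0 kb in intron 10, had 133 and 100, a relative log2 ratio of -0.21 (-0.60 to 0.17). Both regions over the UTR of exon 13 were close to the typical shared region. The one at 131.1 kb had 75 fragments in sgCtrl and 73 in sgSNHG1, a relative log2 ratio of 0.16 (-0.33 to 0.65), and the one at 131.9 kb had 74 and 70, a relative log2 ratio of 0.12 (-0.37 to 0.61). Thus all 7 shared regions in the first 110 kb of the gene had relative log2 ratios between -1.09 and -0.54, and the 3 beyond it between -0.21 and 0.16. The division at 110 kb was chosen after the values were seen.

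The median over the 10 shared regions was -0.59. Among 2586 protein-coding genes with at least 5 shared regions in the window, 0.464% had a median at or below this value. Of the 22 sgCtrl peaks at *MAPT*, 11 (50.0%, 95% Wilson interval 30.7 to 69.3) had no sgSNHG1 peak. That share was not rare, since 31.5% of the 1454 genes with at least 10 sgCtrl peaks had a share as large. The 11 peaks found in sgCtrl only stood between 2.6 and 137.1 kb and had between 49 and 98 fragments. Those of highest fold enrichment stood in intron 1 at 2.6 kb (98 fragments, fold enrichment 4.01), 41.0 kb (60 fragments, 3.81) and 61.0 kb (57 fragments, 3.19). The sgSNHG1 list had peaks of its own at 1.0 kb with 50 fragments and at 48.6 kb with 48.

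**Figure D3:**
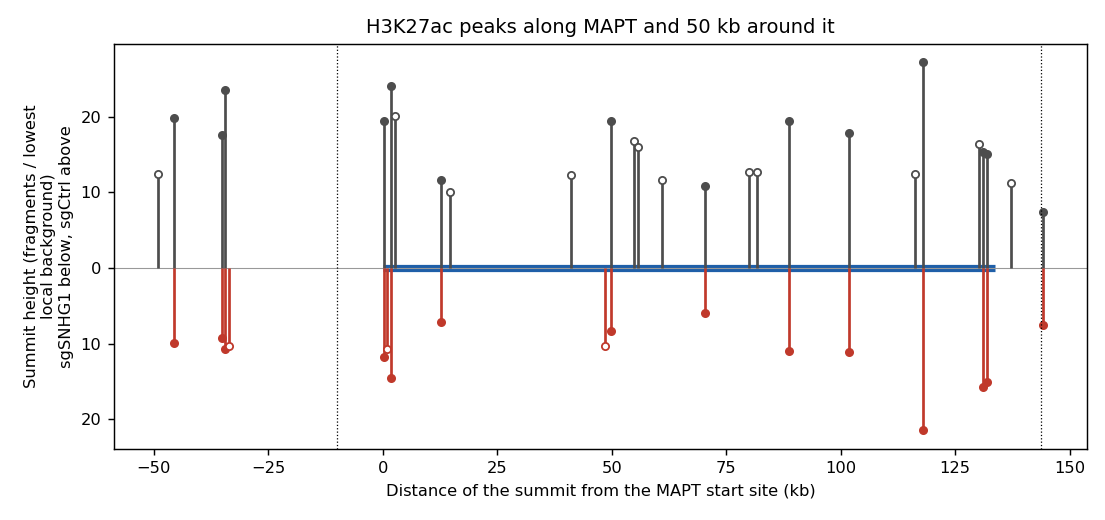
Peaks along *MAPT* and 50 kb around it, by distance of the summit from the start site (kb), with summit height (fragments divided by the lowest local background of the list) upward for sgCtrl in grey and downward for sgSNHG1 in red. Filled points are shared regions, open points are peaks found in 1 list, the blue bar is the gene body and dotted lines mark the window. Heights in sgSNHG1 are lower than in sgCtrl at the shared regions up to 118.0 kb and similar at 131.1 and 131.9 kb.

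Regions upstream of *MAPT*, outside its window, had low ratios too. Within 50 kb there were 3 shared regions there, with summits at -45.5, -35.2 and -34.5 kb, and their relative log2 ratios were -0.88 (-1.42 to -0.36), -0.80 (-1.36 to -0.26) and -1.002 (-1.51 to -0.51). The wider surroundings leaned the same way but far less. Over the 84 shared regions within 1 Mb outside the window the median was -0.14. Over the 42 promoter regions among them (those at most 3 kb from a protein-coding start) it was -0.05, and no median is given for the rest. Peaks in these surroundings numbered 145 in sgCtrl and 101 in sgSNHG1, a ratio of 0.697, against 0.787 over the whole lists. The surroundings of the genes with higher start regions were nearer 0 than those genes were, with medians of 0.20 around *NEFL*, 0.19 around *NEFM*, 0.06 around *NEFH* and 0.11 around *STMN2*. Near *NEFL*, however, the 5 shared promoter regions within 1 Mb had a median of 0.78, and the *NEFM* start regions are among them.

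The fold enrichment of the *MAPT* regions differed less between the lists than the fragments did. It was 4.20 and 3.89 at the start, where the local background was 21.9 fragments in sgCtrl and 13.4 in sgSNHG1. The median relative log2 ratio of the fold enrichment over the 10 shared regions was -0.09. By fold enrichment, 0 of the 9 start-site regions were past 1.5-fold in either direction, against 2.97% higher and 0.827% lower among all shared start-site regions. *NEFL* at 0.48 and *NEFH* at 0.47 came nearest. The fragments and the local background differed in the same direction at *NEFM*, *STMN2*, *MAPT*, *NEFL* and *NEFH*. The log2 ratio of the local background was 0.77, 0.60 and -0.64 at *NEFM*, *STMN2* and *MAPT*. At *NEFL* and *NEFH* it was 0.48 and 0.15.

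**Figure D4:**
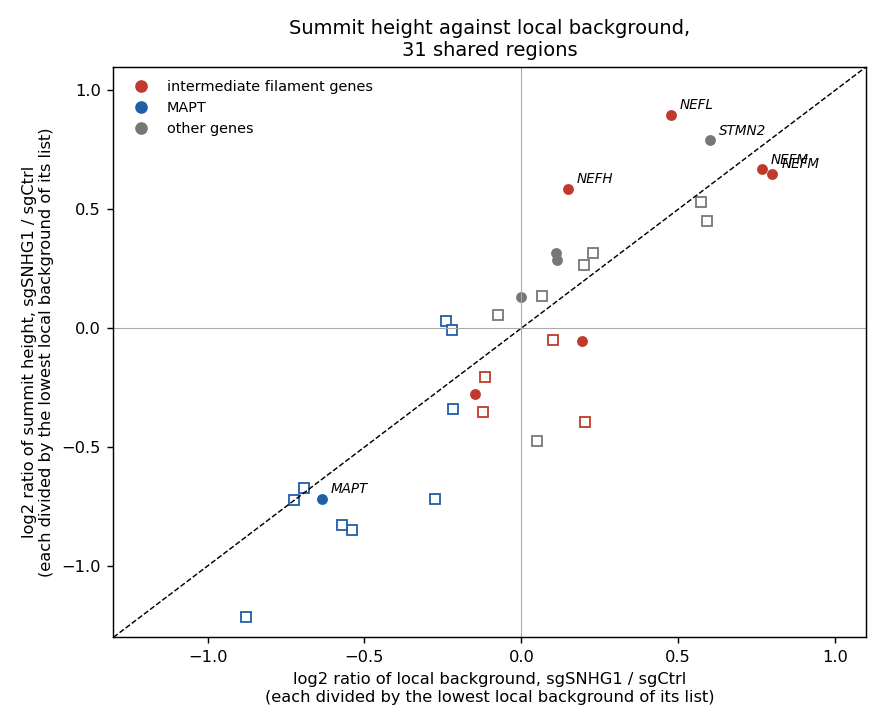
For the 31 shared regions, the log2 ratio (sgSNHG1 over sgCtrl) of summit height against that of the local background, each divided by the lowest local background of its list. Filled points are within 1 kb of the gene's start site, open squares elsewhere. Red marks the intermediate filament genes, blue *MAPT* and grey the other genes. On the dashed line fragments and local background differ equally. *NEFL*, *NEFH* and the *STMN2* start lie above it, and *NEFM* and the *MAPT* start lie near it.

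Over all 10 windows there were 56 regions, of which 31 were shared, 20 were in sgCtrl only and 5 in sgSNHG1 only. Among the shared regions 6 were called higher and 6 lower, beside 8.79% and 5.58% over all shared regions. All 6 lower regions were at *MAPT*, and the 6 higher ones were at *NEFL*, *NEFM*, *NEFH*, *STMN2* and *MAP2*. The median relative log2 ratio was 0.12, and 0.39 over the 21 shared regions of the genes other than *MAPT*. Over all shared regions the median was 0.20 at promoters and -0.11 elsewhere. With each of the 31 regions set against the median of its own kind, their median was 0.06.

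**Figure D5:**
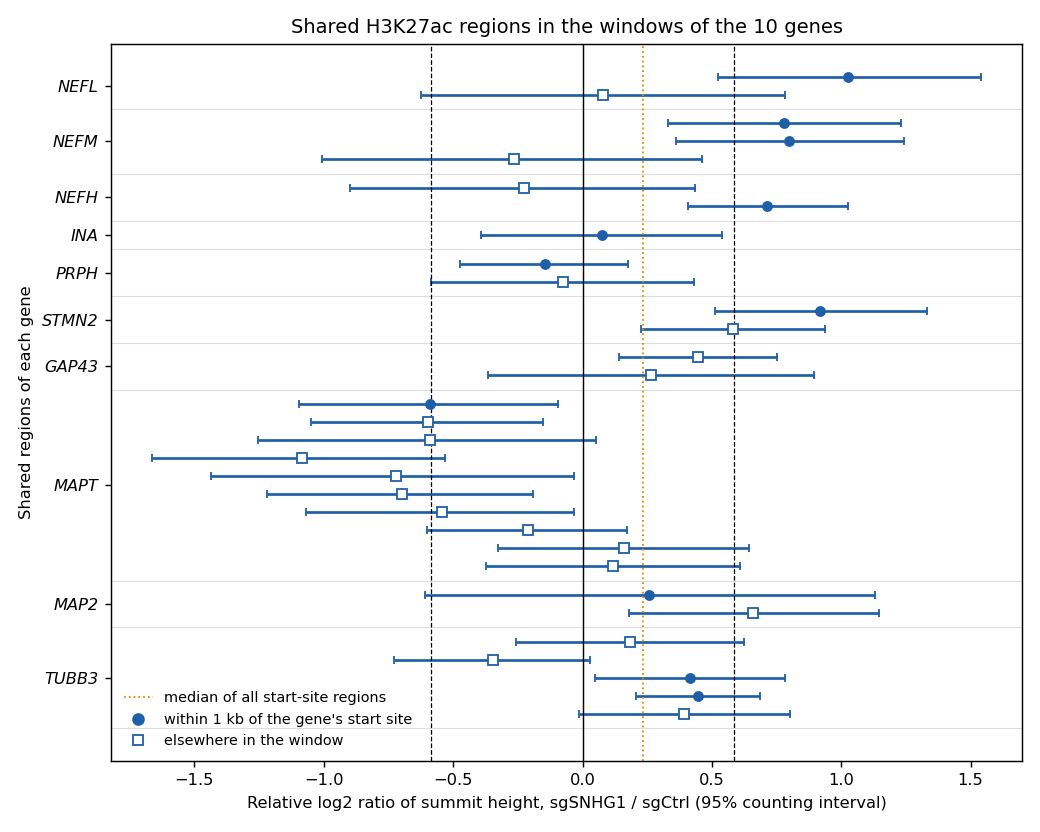
Relative log2 ratio of summit height (sgSNHG1 over sgCtrl, 0 for the median of all shared regions) of the 31 shared regions, by gene and in order along it, with 95% counting intervals. Dashed lines mark 1.5-fold, the dotted line the median of all start-site regions (0.24). Filled points are start-site regions, open squares other regions. The *NEFL*, *NEFM*, *NEFH* and *STMN2* start-site regions lie right of the upper dashed line and 7 of the 10 *MAPT* regions lie below -0.5.

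Peaks found in sgCtrl only lay mainly away from promoters, as they did over the whole sgCtrl list. The 10 windows held 0.679 times as many peaks in sgSNHG1 as in sgCtrl, against 0.787 over the whole lists. The covered length went from 31750 to 20668 bp, a ratio of 0.651, with no value over all genes given beside it. Without *MAPT* the ratios were 0.774 for peaks and 0.860 for covered length. Of the 53 sgCtrl peaks, 20 (37.7%) had no sgSNHG1 peak, against 38.5% of all sgCtrl peaks. Of the 36 sgSNHG1 peaks, 5 (13.9%) had no sgCtrl peak, against 20.8% of all. At promoters (3 kb or less from a protein-coding start) 20 of 22 sgCtrl peaks were shared (90.9%, 72.2 to 97.5), and elsewhere 13 of 31 (41.9%, 26.4 to 59.2). Over the whole sgCtrl list these shares were 79.3% and 52.8%. Of the 20 regions in sgCtrl only, 15 were in introns, beside 33 of all 56 regions, and 11 were at *MAPT*. No share in introns over the whole sgCtrl list is given beside this, so the count is no result about these genes.

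Ranked by fold enrichment within its own list, the highest peak gave directions that depended on the length of the lists. With the lists as deposited, the percentile went up at *NEFH* (from 80.4 to 88.6), *NEFL* (83.6 to 90.4) and *TUBB3* (74.8 to 79.9) and down at the other 7 genes. No gene went up by 10 points, against 8.62% of all 15051 genes with a peak in both lists, and only *NEFM* went down by as much, by 11.8 points, against 12.6% of all genes. The median change was -3.26 points, and -0.69 over all genes. With lists of equal size (the sgCtrl list reduced to its 50119 peaks of highest −log10 p), 6 genes went up and 4 down, the median change was 1.60 points and that over all genes 0.99. Then *NEFH* (13.5), *TUBB3* (12.0) and *NEFL* (11.2) went up by over 10 points and 0 genes went down by as much, beside 16.3% up and 7.03% down over all genes. At *NEFM* the highest peak by fold enrichment was the downstream one at 14.0 kb in sgCtrl, with 6.69, and the exon 1 peak in sgSNHG1, with 5.27.

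A wider list of 28 cytoskeleton genes was set beside these 10. Of them 25 had a start-site region in both lists, 4 were called higher and 0 lower, with a median relative log2 ratio of 0.19. This is near the 17.0% and the 0.24 over all start-site regions. The 4 were *MAP6*, a microtubule stabiliser (0.93), *DPYSL3*, a collapsin response mediator (0.79), *MARCKS*, an actin-binding protein of the membrane (0.74), and *TUBB2B*, a neuronal β-tubulin (0.61). By group, 3 of 15 microtubule proteins, 1 of 2 growth cone proteins, 0 of 2 other intermediate filaments, 0 of 3 spectrins and ankyrins and 0 of 3 motors were called higher. The remaining intermediate filament genes, *NES* at -0.34 (-0.61 to -0.07) and *VIM* at -0.04 (-0.59 to 0.50), did not show the higher values of the neurofilament subunits.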

How the data were processed

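The H3K27ac data of SK-N-BE(2)C cells were 2 deposited peak lists, 1 each for sgCtrl and sgSNHG1, each pooled from 2 samples. The authors trimmed reads with cutadapt, aligned them to GRCh38 with BWA, pooled replicates and called peaks with MACS2 at a p-value of 1e-06 with duplicates kept. The deposited lists give a fold enrichment (the ratio of summit to local background), the −log10 p-value of each peak from MACS2, and the summit offset in bases. No input library is named, and the depth per sample is unknown.

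Summit fragments were recovered from both values, with a pseudocount of 1 and a Poisson distribution, and were whole within 0.001 for 99.6% of the peaks of each list. Duplicates were kept, so fragments are not independent molecules. Peaks were shared at 1 bp of overlap. Intervals (95%) are Wilson for shares and exact binomial for ratios of fragments. Genes came from GENCODE release 44. Python 3.11.15, numpy 2.4.6, pandas 2.3.3 and scipy 1.17.1 were used. On simulated data, all of 5000 pileups were recovered. For the 38580 shared regions, counts were drawn with Poisson error alone from the sgCtrl fragments. Of these regions, 95.5% of 200 with a planted 2-fold change and 1.92% of the unchanged ones were called higher. Lower calls were not counted, and neither kept duplicates nor a spread between samples was simulated. The 1.92% is therefore not the rate of false calls in the real lists. The genes, lists and limits were chosen with earlier results of these data known. All 10 genes are named, with their start-site and highest peaks and up to 3 peaks found in 1 list in each direction, those of highest fold enrichment. Alternatives were other windows, overlaps, thresholds, list sizes and height measures, and, added after seeing the data, other centring and the removal of *MAPT*.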

Additional observations from a re-analysis of the deposited data

How the results depend on the processing

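Of 113 alternative values, 101 moved by less than their counting interval or set limit. Some of these did not move at all, such as the percentile change at *INA* with 50 kb windows (-8.18 points). Others changed sign: with lists of equal size the percentile change went from -4.10 to 3.36 points at *MAPT* and from -2.41 to 1.72 at *MAP2*. The count is therefore no measure of robustness. The 1.5-fold calls of *NEFM* and *NEFH* ended against the median start-site region (0.56 and 0.48) and that of *MAPT* against its surroundings (-0.45). The median relative log2 ratio over the shared regions was 0.12, and it was -0.013 with 50 kb on either side of the genes. It was -0.029 with fold enrichment in place of the fragments, and 0.39 without *MAPT*. Relative to shared regions of the same kind, at promoters or elsewhere, it was 0.059. With an overlap of at least 50% of both peaks, the shared part was 45.3% in sgCtrl and 66.7% in sgSNHG1. The percentile change at *NEFM* turned from -11.8 to 3.02 points with 50 kb windows and to 2.96 with −log10 p as the ranking. The median percentile change over the 10 genes, -3.26 points, was 1.42 with 50 kb windows, 1.60 with lists of equal size and 0.44 with −log10 p. The relative log2 ratio of the *NEFM* start-site region turned from 0.80 to -0.029 with fold enrichment. With fold enrichment the start-site value went to 0.48 at *NEFL*, 0.24 at *STMN2* and -0.08 at *MAPT*, and the *MAPT* median to -0.09. No paired analysis was possible because the lists pool the samples of a group and carry no replicate numbers, and for the same reason no sample could be left out. What can be said of peaks found in 1 list is limited, since a peak that is not listed may lie just under the calling threshold. The listed peaks themselves differed in strength. Their −log10 p ran from 7.09 (*GAP43* at 66.6 kb, sgCtrl) to 30.1 (*MAPT* at 2.6 kb, sgCtrl).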
